A study of Homo sapiens with 4 samples.

Results

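The IκB family was followed across the 4 libraries of the study as 6 gene symbols, NFKBIA, NFKBIB and NFKBIE, which encode the classical inhibitors, and NFKBIZ, NFKBID and BCL3, which encode the atypical, mostly nuclear members. The symbols were taken from a list of the family and not from their values, although earlier results of these data were known. All 6 were found among the 24424 symbols listed. The RNA came from BEAS-2B, an established cell line of wild type human bronchial epithelial cells immortalized with an adenovirus/SV40 hybrid virus, with 1 library for each of 4 conditions. Control cells received no treatment, LPS cells received LPS (lipopolysaccharide, a cell wall component of gram-negative bacteria) for 2 hr, and WT PDZ+LPS and mut PDZ+LPS cells received a peptide for 24 hr and then the same 2 hr of LPS. The peptide carries a Tat sequence that lets it enter cells and a stretch of the first PDZ domain of the tight junction protein ZO-1, and in the mutant form a pair of neighboring glycines is replaced by alanines. No library of peptide without LPS was analysed here, and Control has neither peptide nor LPS. The libraries held 19682929 to 25155647 counts. Since each condition is a single library, the spread between cultures could not be measured and nothing was tested. The intervals, exact at 95%, stand for counting error alone (PCR copies cannot be recognized in these reads), and they set a library against another library and not a condition against another. The mut PDZ+LPS library stood apart from the rest in trends of fold change with transcript length and with GC content, and its fold changes against both other LPS-treated libraries are given with and without these trends. All 7 epithelial markers examined had at least 16 normalized counts in a library, with a summed level of 68058 to 94331, as did 2 of 5 leukocyte markers (summed level 731 to 897), 2 of 5 fibroblast markers (408 to 552) and 0 of 3 endothelial markers (5.87 to 14.1). The leukocyte marker PTPRC and the fibroblast marker LUM had 0 counts in all 4 libraries. In bulk RNA, fewer cells that express a gene and less RNA per cell cannot be told apart.

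NF-κB is a family of dimeric transcription factors that rest in the cytoplasm bound to IκB proteins, whose ankyrin repeats cover the nuclear localization signals of the dimer. When a signal such as LPS activates the IκB kinase (IKK) complex, IκBα, IκBβ and IκBε are phosphorylated, ubiquitinated and degraded, and the freed dimers enter the nucleus. Several IκB genes are themselves NF-κB targets, so that the inhibitor is made anew, a classic negative feedback loop. The atypical members IκBζ (NFKBIZ), IκBNS (NFKBID) and BCL3 instead bind NF-κB on DNA, mainly through the p50 and p52 subunits, and can raise or lower the transcription of chosen target genes.

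The promoters of these genes are shown first because the sites at which NF-κB binds, called κB sites, lie in them and because most of the genes were higher after LPS. RefSeq promoter windows (GRCh38.p14, from 250 bases before to 50 bases after an annotated start) were found for 5 of the 6 genes, 9 windows in all, with several starts for NFKBIB, NFKBIZ and NFKBID and none used here for NFKBIE. The same 10 letters, GGGAATTTCC on either strand, stood in a window of NFKBIA, NFKBIZ and NFKBIB. They occurred in 51 of 35116 windows of all genes (0.145%). These letters are the form of the κB consensus found in the most members and were picked after the windows of the family had been read, so the match is a description and not a test. The windows of NFKBIA and of the first start of NFKBIZ are printed below up to the base before the start, on the strand of the gene and from 5′ to 3′, with capitals for letters that match the κB consensus on either strand. The window of NFKBIA lies on the minus strand at chr14:35404750-35404999 and that of NFKBIZ on the plus strand at chr3:101827740-101827989.
NFKBIA: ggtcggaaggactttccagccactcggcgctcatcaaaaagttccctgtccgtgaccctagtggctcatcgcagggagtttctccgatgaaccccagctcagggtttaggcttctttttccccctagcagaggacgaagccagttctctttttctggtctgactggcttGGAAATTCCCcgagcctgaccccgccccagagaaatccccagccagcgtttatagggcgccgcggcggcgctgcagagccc
NFKBIZ: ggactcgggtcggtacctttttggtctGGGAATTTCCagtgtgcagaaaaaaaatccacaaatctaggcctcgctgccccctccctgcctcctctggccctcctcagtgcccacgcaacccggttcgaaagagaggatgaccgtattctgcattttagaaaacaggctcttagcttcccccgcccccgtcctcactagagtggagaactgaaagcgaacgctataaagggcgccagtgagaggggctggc

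The κB consensus, searched on both strands, matched 7 of the 9 windows and at least one window of each of the 5 genes, against 3956 of 35116 windows of all genes (11.3%). The 10 letters shared by the 3 genes are one form of this consensus, so each of their matches is also counted under it. Positions count from the first transcribed base as 1, and bases before it are negative. Sites are given below with up to 10 bases on either side and the site in capitals, since the letters around a shared site differed between the genes. The NFKBIB window of its second start held further consensus matches, one of which overlaps the shared site by all but 1 base.
NFKBIA, site from base -81 to -72, chr14:35404811-35404840, minus strand: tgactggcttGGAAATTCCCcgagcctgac
NFKBIB, start 2, site from base -28 to -19, chr19:38899931-38899960, plus strand: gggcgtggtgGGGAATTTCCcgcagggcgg
NFKBIZ, start 1, site from base -223 to -214, chr3:101827757-101827786, plus strand: tttttggtctGGGAATTTCCagtgtgcaga
NFKBIZ, start 2, site from base -239 to -230, chr3:101849265-101849294, plus strand: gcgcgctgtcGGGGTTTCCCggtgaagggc
NFKBID, start 2, site from base -92 to -83, chr19:35900613-35900642, minus strand: agcgcgacccGGGGACTCCCaggcctgtgg
NFKBID, start 3, site from base -198 to -189, chr19:35899922-35899951, minus strand: gggctgagcaGGAATTCCCCttgcgcgggg
BCL3, site from base 3 to 12, chr19:44748700-44748729, plus strand: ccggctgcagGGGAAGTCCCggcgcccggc

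**Figure D1:**
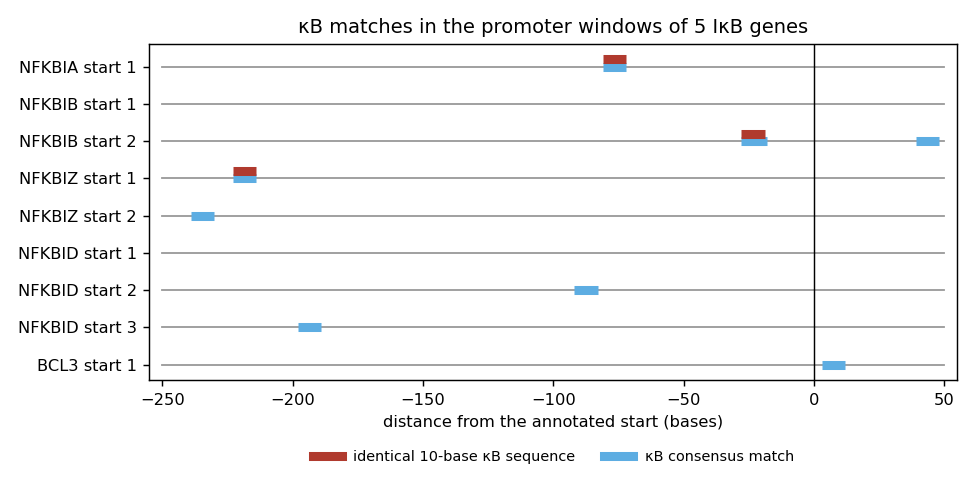
Positions of κB matches in the 9 RefSeq promoter windows of 5 IκB genes, with the distance from the annotated start in bases on the horizontal axis. Red bars mark the 10 letters shared by NFKBIA, NFKBIB and NFKBIZ, which begin at base -81, -28 and -223 from their starts, and blue bars mark matches to the κB consensus, absent from the first windows of NFKBIB and NFKBID.

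LPS/Control asks what 2 hr of LPS did to the transcripts of the family. A gene was called at least 2-fold different when one of the 2 libraries compared also held 16 or more normalized counts for it (4 on the log2 scale). Of the 6 members, 5 were at least 2-fold higher with LPS and 0 were lower. Of the 13277 genes that passed the expression rule 4.87% were called, 3.46% as higher and 1.41% as lower. All 6 members were above 0, where 49.5% of these genes were. The median log2 fold change of the family was 2.03, and that of all these genes was -0.0023. Both groups of the family took part, with 2 of the 3 classical inhibitors and 3 of the 3 atypical members at least 2-fold higher.

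NFKBIA, which encodes IκBα, the inhibitor that is lost and made again within the first hours of a stimulus, had 1471 normalized counts in Control and 11594 in LPS, and the libraries WT PDZ+LPS and mut PDZ+LPS held 10599 and 14814. All 3 LPS-treated libraries lay far above Control. NFKBIA was 7.88-fold higher in LPS than in Control (log2 fold change 2.98, 95% counting interval 2.91 to 3.05). The gene lies on chromosome 14 (35401511 to 35404749, minus strand, GRCh38 in GENCODE 29), and its longest coding transcript, of 6 exons, measures 1558 nt.

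NFKBIE, which encodes IκBε, an inhibitor that retains RELA and REL dimers and is made with some delay, stood at 473 normalized counts in Control against 2730 in LPS. With a peptide first it stood at 2462 in WT PDZ+LPS, while the mut PDZ+LPS library held 3053. It was the second of the classical inhibitors to be called, at 5.77-fold in LPS/Control (log2 fold change 2.53, 2.40 to 2.67). The order of the 4 libraries was the same as for NFKBIA, with mut PDZ+LPS highest and WT PDZ+LPS lowest among the LPS-treated ones.

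NFKBIB, which encodes IκBβ, had 829 normalized counts in Control and 1131 in LPS. It had 1068 with the WT PDZ peptide and 1558 with the mutant before LPS. It was the single member below 2-fold in LPS/Control, at 1.36-fold (log2 fold change 0.45, 0.32 to 0.57), although the counting interval excluded 0. The window of its second start carries the same 10-letter κB site as NFKBIA and NFKBIZ. The gene overlaps SIRT2 on the opposite strand by 163 bases. The library kit keeps strand, but whether the counting used it is not given in the sources used here, so reads in the overlap may belong to either gene.

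NFKBIZ, which encodes IκBζ, a nuclear cofactor that many secondary response genes need, went from 233 normalized counts in Control to 4457 in LPS, and measured 3999 in WT PDZ+LPS against 3583 in mut PDZ+LPS. Its difference in LPS/Control was the largest of the family, 19.0-fold (log2 fold change 4.25, 4.08 to 4.44). Unlike the other 5 members, its lowest value among the LPS-treated libraries was that of mut PDZ+LPS. It also has the longest coding transcript of the family, at 3923 nt over 12 exons.

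NFKBID, which encodes the nuclear IκBNS, was the member with the fewest reads. Its normalized count was 80.1 in Control (92 reads) and 232 in LPS (247 reads), then 239 in WT PDZ+LPS (237 reads) against 330 in mut PDZ+LPS (281 reads). The value in LPS was 2.88-fold that of Control (log2 fold change 1.53, 1.19 to 1.90), with the widest interval of the family. The small gap between LPS and WT PDZ+LPS was within counting error.

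BCL3, a partner of p50 and p52 that was first found at a chromosomal translocation in leukemia, had 1349 normalized counts before LPS in Control and 3402 in LPS. The WT PDZ+LPS library held 2902 and the mut PDZ+LPS library 3855. It was high before LPS, so that a smaller fold stood for a larger number of reads than in NFKBID. BCL3 was 2.52-fold higher in LPS than in Control (log2 fold change 1.33, 1.25 to 1.42).

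**Figure D2:**
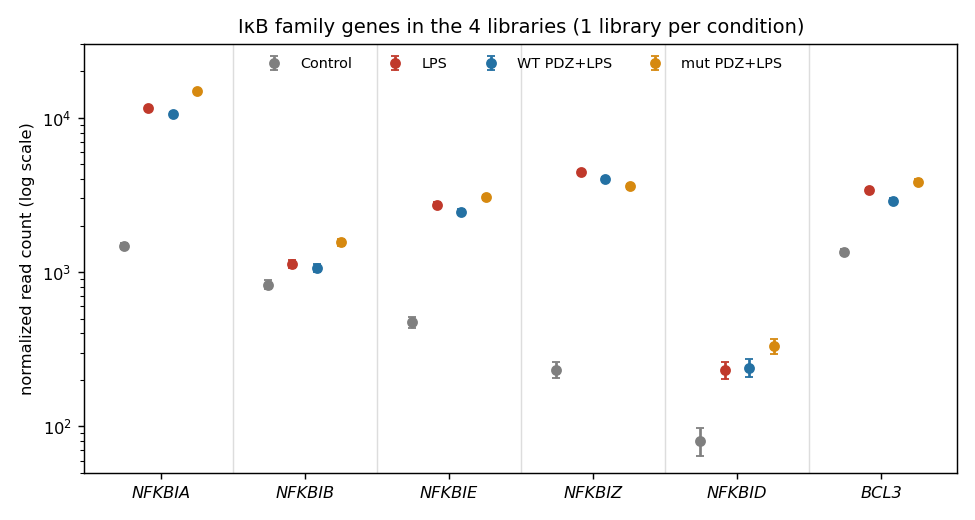
Normalized read counts of the 6 IκB genes (vertical axis, log scale) in the 4 conditions, 1 library each, with exact 95% Poisson intervals for counting error as bars. Control is the lowest point for each gene, and NFKBIZ spans the widest range, from 233 in Control to 4457 in LPS.

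With a peptide before LPS, the same 5 members were at least 2-fold higher than Control and NFKBIB was again the exception. In WT PDZ+LPS/Control, 5 of 6 were called higher and 0 lower, where 4.7% of 13284 genes were called, 3.28% as higher and 1.42% as lower. In mut PDZ+LPS/Control the members gave the same counts, where 8.09% of 13434 genes were called, 5.13% as higher and 2.96% as lower. All 6 members were above 0 in both, as were 51.7% and 48.7% of all genes. These comparisons share the Control library with LPS/Control, so their values are given side by side and not as separate evidence. The log2 fold change of NFKBIA over Control was 2.98 for LPS, 2.85 for the WT PDZ peptide with LPS and 3.33 for the mutant. In the same order, for NFKBIE these were 2.53, 2.38 and 2.69, and for NFKBIZ 4.25, 4.09 and 3.94. NFKBID was at 1.53, 1.57 and 2.03. The values of NFKBIB were 0.45, 0.36 and 0.91. For BCL3 they were 1.33, 1.10 and 1.51, and with scaling by total counts BCL3 in WT PDZ+LPS/Control was at 0.97, below the 2-fold line. With the length and GC trend removed as described below, BCL3 in mut PDZ+LPS/Control was at 1.03, just above that line. In this comparison NFKBIA was then at 3.14, NFKBIE at 2.49, NFKBIZ at 4.13, NFKBID at 1.65 and NFKBIB at 0.56. After the correction NFKBIZ was thus above its value in WT PDZ+LPS/Control (4.09), and NFKBIE below its value in LPS/Control (2.54).

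**Figure D3:**
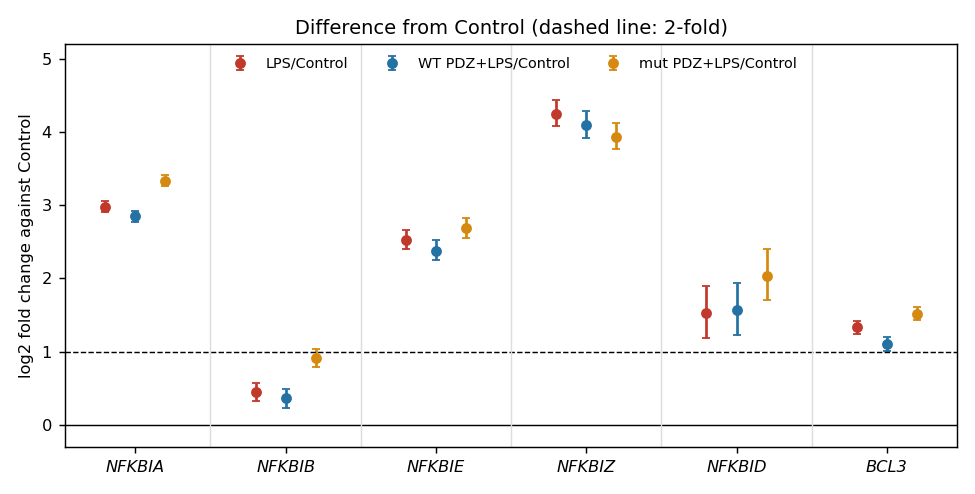
Log2 fold change of the 6 IκB genes against Control (vertical axis) for LPS alone and for LPS after the WT PDZ or the mut PDZ peptide, 1 library each, with exact 95% counting intervals as bars and a dashed line at 2-fold. NFKBIZ lies highest, between 3.94 and 4.25, and NFKBIB stays below the dashed line in all 3 comparisons.

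The make-up of the family differed between the Control and LPS libraries. Levels were compared between genes as normalized counts per kb of the longest coding transcript, and the sum over the 6 genes was 2322 in Control and 12017 in LPS, with 10884 and 14484 in the WT PDZ+LPS and mut PDZ+LPS libraries. On this scale NFKBIA led in every library, with 944 in Control and 7442 in LPS, followed by BCL3 with 662 and 1669. NFKBIA made up 40.7% of the sum in Control and 61.9% in LPS. NFKBIB held the third place in Control (18.5%) and the fifth in LPS (4.88%), and the share of NFKBIZ was 2.56% in Control and 9.45% in LPS. The share of BCL3 was 28.5% in Control and 13.9% in LPS. In WT PDZ+LPS the respective shares of NFKBIA, NFKBIZ and BCL3 were 62.5%, 9.37% and 13.1%, and in mut PDZ+LPS 65.6%, 6.31% and 13.1%. The sum, shares and order in mut PDZ+LPS hold its length and GC trends. With these trends removed, NFKBIA was at 0.097 in mut PDZ+LPS/LPS (0.35 as measured) and NFKBIZ at -0.11 (-0.31 as measured). NFKBID was the least abundant member in all 4 libraries. Most neighbors in the order were separated beyond their counting intervals. The exceptions were NFKBIZ (52.5 to 67.0) and NFKBID (35.2 to 53.5) in Control, and NFKBIZ (988 to 1052) and NFKBIE (916 to 992) in WT PDZ+LPS. Which transcript of a gene was made is not known from gene counts, and another transcript length would move these levels.

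**Figure D4:**
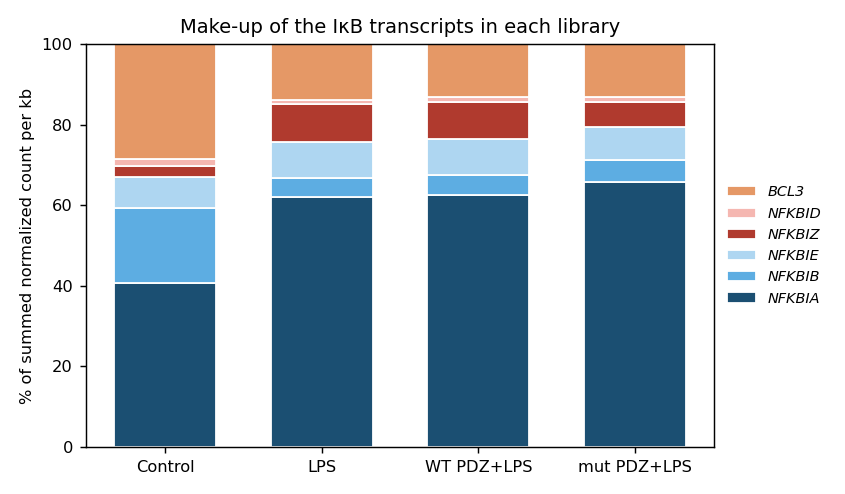
Share of each IκB gene in the summed normalized count per kb of the family (vertical axis, %) in the 4 libraries, as stacked bars without error. The NFKBIA segment is 40.7% in Control and 61.9% in LPS, and the NFKBIB segment 18.5% and 4.88%.

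The balance of an inhibitor and its partner was also read as a ratio of counts within 1 library, which does not depend on any scale factor. Per kb, the level of NFKBIA was 1.70 times (1.60 to 1.82) that of RELA, the p65 subunit that IκBα retains, in Control, 8.88 times (8.53 to 9.26) in LPS and 8.76 times (8.38 to 9.16) in WT PDZ+LPS. In mut PDZ+LPS it was 11.7 times (11.2 to 12.3), a value from which the length and GC trends were not removed, as in the other ratios. NFKBIE per RELA went from 0.330 in Control to 1.26 in LPS and 1.23 in WT PDZ+LPS, and was 1.46 in mut PDZ+LPS. NFKBIB per RELA was 0.775 (0.717 to 0.838) in Control, 0.700 (0.653 to 0.749) in LPS and 0.713 (0.663 to 0.767) in WT PDZ+LPS, intervals that overlap. The mut PDZ+LPS library lay above these, at 0.998 (0.931 to 1.07).

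The atypical members were set against the genes of the subunits they bind. BCL3 per NFKB2, the gene of p100 and p52, was 2.23 (2.07 to 2.41) in Control. After LPS it was 0.874 without a peptide, 0.888 with the WT PDZ peptide and 0.878 with the mutant. On these uncorrected counts the intervals overlapped among all 3 LPS-treated libraries. Against NFKB1, the gene of p105 and p50, the mutant did not lie with the others. BCL3 per NFKB1 was 1.42 (1.33 to 1.51) in Control, 0.531 (0.512 to 0.551) in LPS and 0.504 (0.484 to 0.525) in WT PDZ+LPS, but 1.04 (0.995 to 1.08) in mut PDZ+LPS. NFKBID per NFKB1 was 0.0934 (0.0750 to 0.115) in Control, 0.0403 in LPS and 0.0462 in WT PDZ+LPS, with 0.0988 (0.0873 to 0.111) in mut PDZ+LPS. NFKB1 itself was at -0.79 in mut PDZ+LPS/LPS, and at -0.59 with the length and GC trend removed. In the same comparison BCL3 was at 0.18 as measured and -0.33 corrected, NFKBID at 0.51 and 0.079, and NFKBIZ at -0.31 and -0.11. NFKB2 was at 0.17 as measured, close to BCL3, and at 0.044 corrected, above BCL3. The ratios hold the uncorrected counts, and the part of these trends in each ratio of mut PDZ+LPS was not tested. NFKBIZ per NFKB1 was 0.127 (0.112 to 0.144) in Control, 0.361 in LPS and 0.361 in WT PDZ+LPS. In mut PDZ+LPS it was 0.501 (0.480 to 0.523). In LPS/Control the fold of BCL3 (2.52) was thus below those of NFKB1 (6.72) and NFKB2 (6.43), and that of NFKBIZ (19.0) above both.

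WT PDZ+LPS/LPS asks whether the WT PDZ peptide altered the response to LPS. None of the 6 members reached a 2-fold difference, where 1.37% of 13236 genes did, 0.635% as higher and 0.733% as lower. On a finer scale, 5 of 6 members were lower in WT PDZ+LPS than in LPS, with a median log2 fold change of -0.14 against 0.0076 for all genes, of which 52.8% were higher. The counting interval excluded 0 for 4 of them, a count for which no share of all genes is given here. BCL3 was lowest at -0.23 (-0.30 to -0.16), followed by NFKBIZ at -0.16 (-0.22 to -0.095), NFKBIE at -0.15 (-0.23 to -0.071) and NFKBIA at -0.13. NFKBIB was at -0.082 (-0.20 to 0.039) and NFKBID at 0.042 (-0.22 to 0.31), so that these differences could not be detected with the reads at hand.

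As a share of the rise from Control to LPS, WT PDZ+LPS held 90.2% ± 1.38 (counting SE) for NFKBIA, 88.1% ± 2.97 for NFKBIE, 89.2% ± 2.03 for NFKBIZ and 75.7% ± 3.39 for BCL3. For NFKBIB and NFKBID the shares were 79.3% ± 14.0 and 105% ± 14.4, too uncertain to place. The spread between separate cultures is unknown here, and the sizes of these differences cannot be set against it.

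**Figure D5:**
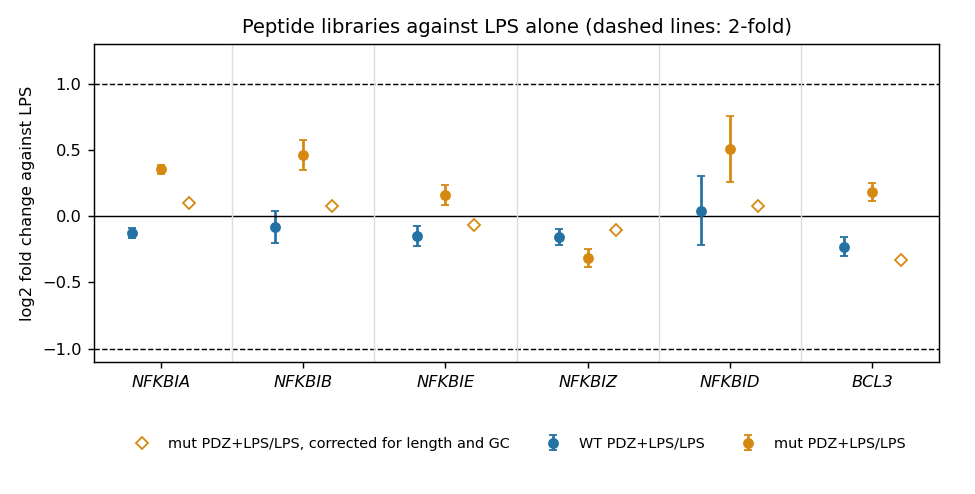
Log2 fold change of the 6 IκB genes against LPS (vertical axis) for WT PDZ+LPS and mut PDZ+LPS, 1 library each, with exact 95% counting intervals as bars and dashed lines at 2-fold. Open diamonds give mut PDZ+LPS with the length and GC trend removed, where the values run from -0.33 for BCL3 to 0.097 for NFKBIA.

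mut PDZ+LPS/LPS serves as the control for the peptide sequence. None of the 6 members differed by 2-fold, where 3.95% of 13378 genes did, 2.05% as higher and 1.9% as lower. Before any correction 5 of 6 were higher in mut PDZ+LPS, with a median of 0.27 against -0.017 for all genes, of which 48.5% were higher. NFKBID was highest at 0.51 (0.26 to 0.76), then NFKBIB at 0.46 (0.35 to 0.58), NFKBIA at 0.35 (0.32 to 0.39), BCL3 at 0.18 (0.11 to 0.25) and NFKBIE at 0.16 (0.084 to 0.24). NFKBIZ was lower, at -0.31 (-0.38 to -0.25).

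These values moved with transcript length and GC content. Across 11751 genes, which are not independent replicates, longer transcripts had lower values in mut PDZ+LPS/LPS, with a Spearman's rho of -0.603, and rho was 0.0736 in WT PDZ+LPS/LPS. With GC content rho was 0.413 and -0.0887. The part of length and of GC content in the members' values was not tested apart, since the values are given only with both trends removed. The 3 shortest transcripts of the family are those of NFKBIA (1558 nt), NFKBID (1834 nt) and NFKBIB (1929 nt), and these genes had the highest values. The longest, NFKBIZ, had the lowest. After a trend over length and then GC content had been removed, 3 of 6 members were above 0 and 3 below, with a median of 0.0057. NFKBIA was then at 0.097, NFKBID at 0.079, NFKBIB at 0.075, NFKBIE at -0.063, NFKBIZ at -0.11 and BCL3 at -0.33. The sign turned for NFKBIE and for BCL3, whose transcript of 2038 nt has the highest GC content of the family (67.4%). A rho of 0.0917 with length remained after the correction.

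Between the peptides, mut PDZ+LPS/WT PDZ+LPS again had 0 of 6 members at 2-fold, where 4.26% of 13372 genes were called, 2.12% as higher and 2.14% as lower. Above 0 were 5 of 6 members and 49% of all genes. NFKBIB was at 0.54, NFKBIA at 0.48, NFKBID at 0.46, BCL3 at 0.41 and NFKBIE at 0.31, with NFKBIZ at -0.16. After the same correction they lay between -0.10 for BCL3 and 0.20 for NFKBIA, and the signs of BCL3 and NFKBIZ turned. Both the WT and the mutant peptide library stayed within 2-fold of LPS for every member of the family, before and after the correction. Few genes of any kind reached 2-fold against LPS, 1.37% with the WT peptide and 3.95% with the mutant. A count of 0 of 6 therefore does not set the family apart from other genes.

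The rest of the pathway was read from 5 lists. Among the 5 NF-κB subunit genes, 4 were at least 2-fold higher in LPS/Control, beside 3.46% of all genes. They were NFKB1 (6.72-fold), NFKB2 (6.43-fold), RELB (from 451 to 1808 normalized counts) and REL (3.76-fold). RELA was below that line, at 1.51-fold. NFKB2 had the largest difference of this list in WT PDZ+LPS/LPS, -0.25 (-0.30 to -0.20), and REL in mut PDZ+LPS/LPS, -1.58 as measured and -1.02 corrected.

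Next came the machinery that destroys the classical inhibitors. Of 10 genes of the IKK complex and its activators, 1 was at least 2-fold higher in LPS/Control, IKBKE, a noncanonical IκB kinase, at 3.04-fold, where 3.46% of all genes were. The median of the list was 0.16. CHUK, which encodes IKKα, had the largest difference of this list against LPS in both peptide libraries, 0.16 (0.059 to 0.27) in WT PDZ+LPS, against -0.93 (-1.07 to -0.80) in mut PDZ+LPS, or -0.79 after the correction. None of the 5 genes of the ubiquitin ligase that marks IκB for the proteasome was called in LPS/Control, where 4.87% of all genes were, and their median was -0.16. BTRC, which encodes the adaptor βTrCP that recognizes phosphorylated IκB, was at -0.46 (-0.64 to -0.28) in LPS/Control. It had the largest difference of the list in WT PDZ+LPS/LPS, 0.19 (-0.0067 to 0.39). Its relative FBXW11 had the largest in mut PDZ+LPS/LPS, -0.87 as measured and -0.60 with the trend removed.

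Of 10 nuclear and feedback regulators, 2 were at least 2-fold higher in LPS/Control, beside 3.46% of all genes, and the median was 0.30. TNFAIP3, which encodes the ubiquitin-editing enzyme A20, was 20.7-fold higher, close to NFKBIZ, and its partner TNIP1 3.75-fold. Against LPS, COMMD1, which promotes the removal of NF-κB from DNA, had the largest value of the list in WT PDZ+LPS, -0.27 (-0.43 to -0.11). The deubiquitinase gene CYLD had it in mut PDZ+LPS before the correction, -0.70. With the trend removed CYLD was at -0.22, and PDLIM2, the gene of a ligase for nuclear RELA, had the largest value of the list, 0.27.

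The last list held genes known to need IκBζ in other cells. Of the 7, 5 passed the expression rule, and these 5 were at least 2-fold higher in LPS/Control, beside 3.46% of all genes. IL12B and DEFB4A had 0 counts in all 4 libraries, which allows up to 3 counts in each as a one-sided limit. IL6 was 28.5-fold higher, EDN1 (endothelin-1) 5.81-fold, CEBPD 4.36-fold and LCN2 (lipocalin-2) 4.18-fold. CSF2 went from 1 to 274 reads, a ratio of 296 (52.7 to 11740). It passed the expression rule in LPS/Control only through the LPS library, so its call as higher was fixed by that rule. In WT PDZ+LPS/LPS the median of the 5 was -0.082, and EDN1 had the largest value, -0.12 (-0.46 to 0.22), with an interval that includes 0. All 5 were above 0 in mut PDZ+LPS/LPS, with a median of 0.54, where NFKBIZ itself was below 0 and 48.5% of all genes were above it. CEBPD had the largest value there before the correction, 0.84. After it 4 of 5 were above 0, and EDN1 (0.56) and IL6 (0.34) lay above CEBPD (0.29).

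For each member, the genes with the most similar profile over the 4 libraries were named by the smallest Euclidean distance between log2 profiles, each centered on its own mean, among the genes that averaged 100 or more normalized counts. With 4 libraries and 10859 genes many profiles lie close together, and the distance is only a description. All distances, also those within the family, use uncorrected counts and so hold the length and GC trends of mut PDZ+LPS. Nearest to NFKBIZ was TNFAIP3 (distance 0.23), followed by the heparan sulfate proteoglycan gene SDC4 (0.33) and FILIP1L (0.35). Nearest to NFKBIE was NFKB2 (0.14), followed by the kinase gene PLK3 (0.17) and GCH1 (0.22), which encodes the first enzyme of tetrahydrobiopterin synthesis. The genes nearest to NFKBIA were DUSP8 (0.071), a MAP kinase phosphatase gene, MSC (0.084) and the ephrin ligand gene EFNA1 (0.13).

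BCL3 was nearest to HELZ2 (0.042), ANGPTL4 (0.072) and the transcription factor gene SOX4 (0.077). The profile of NFKBID was closest to that of JUN (0.078), a subunit of AP-1, then the histone demethylase gene KDM6B (0.12) and SAA2 (0.13), a near-identical copy of SAA1, so that its count is uncertain. For NFKBIB the nearest were ZSWIM8-AS1 (0.040), TMEM265 (0.042) and STK19 (0.060), of which the first is an antisense transcript whose reads may come from its partner. Within the family NFKBID and BCL3 were the closest pair (0.42), then NFKBIA and NFKBIE (0.48). NFKBIB and NFKBIZ were the farthest apart (3.11). The 10-letter κB site they share stands at the second start of NFKBIB and the first start of NFKBIZ. Which start was used is not known from gene counts.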

How the data were processed

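RNA from BEAS-2B cells was measured in 4 libraries, 1 per condition, prepared from poly(A) RNA with a directional kit. After trimming adapters and poor reads, the authors mapped the remainder with TopHat (to hg19, according to the submitters' processing notes). The deposited values are raw counts of reads for each gene symbol, without normalization. The annotation, the counting tool and its strand setting are not given in the sources used here. From the counts, geometric size factors (DESeq2 1.42.0 in R 4.3.3) were 0.851 (mut PDZ+LPS), 0.990 (WT PDZ+LPS), 1.06 (LPS) and 1.15 (Control). To each value 1 normalized count was added before log2. Totals ranged from 19682929 to 25155647, so that depth limits NFKBID most. Counting intervals are Clopper-Pearson for a ratio of 2 counts and exact Poisson for a level, at 95%. Shares of the LPS rise carry a delta-method SE.

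No test was run, because each condition has 1 library. Transcript length and GC content came from the longest coding transcript in GENCODE 29, with a value for 11751 of 13072 genes (89.9%) averaging 16 or more normalized counts, and for all 6 members. A lowess trend (span 0.3, statsmodels 0.14.6) was removed over length and then GC content. Promoter sequences were those of RefSeq on GRCh38.p14, another build than that of the mapping, and no coordinate was carried between builds. Alternatives were other scalings (by upper quartile, by total count, by TMM in edgeR 4.0.16), fold thresholds of 1.5 and 3, an expression rule of 6 on the log2 scale or none, a pseudocount of 5, and the correction. The steps were tested on simulated data. Besides the members, the text names pathway genes at least 2-fold different in LPS/Control, the gene of each list with the largest difference against LPS for each peptide, and the 3 genes with the nearest profiles. RELA, PDLIM2, SIRT2 and genes with 0 counts were named after their values were seen. The members, lists and alternatives were chosen with earlier results of these data known. Scripts ran in Python 3.11.15 with scipy 1.17.1, matplotlib 3.10.9, pandas 2.3.3 and numpy 2.4.6.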

Additional observations from a re-analysis of the deposited data

Results flagged for a closer look

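Against LPS, 3 members lay on opposite sides in the libraries of the peptides, lower in WT PDZ+LPS and higher in mut PDZ+LPS, with both counting intervals away from 0. The gap between the peptides on the log2 scale was 0.4831 for NFKBIA, 0.3102 for NFKBIE and 0.4096 for BCL3. Both comparisons share the LPS library, and the difference was not tested because each condition has 1 library. The share of all genes that meet this rule is not given here, so the count only describes these members. With the length and GC trend removed, the gap was 0.20 for NFKBIA, 0.075 for NFKBIE and -0.10 for BCL3, where it turned. Of these members, only NFKBIA then still lay on opposite sides of LPS, at -0.11 for the WT peptide and 0.097 for the mutant. NFKBIE (-0.15 for the WT peptide, -0.063 for the mutant) and BCL3 (-0.24, then -0.33) were below LPS with either peptide. The corrected values carry no counting interval.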

How the results depend on the processing

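The number of members at least 2-fold different stayed within 1.5 times the reported count under every alternative except a 3-fold threshold. That threshold left 3 of the 5 members in LPS/Control and 3 of the 5 in WT PDZ+LPS/Control, in both cases NFKBIA, NFKBIE and NFKBIZ. The counts of 0 for each peptide against LPS and between the peptides stayed at 0 under every alternative, a 1.5-fold threshold included. Shares of all genes called are given here for the 2-fold threshold only, not for 1.5-fold or 3-fold. Over the 36 log2 fold changes of the 6 members in 6 comparisons, TMM scaling moved a value by at most 0.015, upper-quartile scaling by at most 0.065 and a pseudocount of 5 by at most 0.052, with 0 sign changes in each. Total counts moved values by at most 0.13, also with 0 sign changes, and lowered the median of all genes by 0.13 in LPS/Control, to -0.13. Removing the length and GC trend moved values by at most 0.51 and changed the sign of 4, those of NFKBIE and BCL3 in the mutant peptide against LPS and of NFKBIZ and BCL3 between the peptides. None of these 4 was a 2-fold difference. No paired analysis was possible because each group has 1 sample, and no replicate could be left out.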
